A study of Homo sapiens with 2 samples.

Results

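EGFL7 and AGPAT2 are neighbouring protein-coding genes near the end of the long arm of chromosome 9, and the acetylated sites around them are described here. The members are all peaks within 50 kb of either gene, which is the interval chr9:136608856-136737457 (hg38). Of the 19671 peaks deposited for the ERG library it holds 7, and of the 9161 for the Vector library it holds 3. The interval was chosen by the length that ERG-library peaks cover there, which is among the greatest of that library. Covered lengths, peak widths, the presence of ERG-library peaks and their excess over the Vector library are therefore given as descriptions and support nothing.

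The peaks mark histone H3 acetylated at lysine 27 (H3K27ac), measured by chromatin immunoprecipitation and sequencing in F36P cells, a human line established from an erythroid leukaemia. The ERG library came from F36P cells transduced with the retroviral plasmid MSCV-PIG-AM-ERG, labelled ERG overexpression. ERG is an ETS-family transcription factor, and what AM stands for was not established here. The Vector library came from F36P cells transduced with the empty plasmid MSCV-PIG, labelled WT. Puromycin selection of both cultures lasted 4 days at 1 µg/ml, so both carry a plasmid with a resistance gene. Each group held 1 library, so no difference has a replicate check, no p-value is given, and every interval covers counting error only. In a bulk culture, more cells with the mark and more of the mark in each cell cannot be told apart.

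H3K27ac is laid down by the acetyltransferases CBP and p300 at active promoters and enhancers, and clusters of such sites over several kilobases often mark strongly used enhancers. EGFL7 encodes a secreted protein with epidermal growth factor-like repeats that is made mainly by endothelial cells, where it guides vessel formation and modulates Notch signalling. An intron of the gene carries the microRNA gene MIR126, which is known in endothelial and blood stem cells, and ERG and other ETS factors are known regulators of EGFL7 in endothelium. AGPAT2 encodes an acyltransferase that makes phosphatidic acid on the way to phospholipids and triglycerides, and its loss causes congenital generalised lipodystrophy.

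In the RefSeq gene table (assembly GRCh38.p14, with the same chromosome positions as hg38), EGFL7 (gene 51162) lies at 136658856 to 136672678 and is read towards higher coordinates. AGPAT2 (gene 10555) lies at 136673143 to 136687457 and is read the other way, so the genes end towards each other with 464 bp between their records. EGFL7 has 2 listed starts, the upstream one at 136658856 and the downstream one at 136662916, whereas AGPAT2 has 1 at 136687457. The other coding genes of the interval are DIPK1B (136712572 to 136724742) and LOC124900276 (136717282 to 136728184). Among its non-coding genes are LOC102724193 (136646684 to 136654096), the EGFL7 antisense gene LNCEGFL7OS (136648610 to 136660421) and SNHG7 (136724594 to 136728184). The table holds no exons, so exon, intron and UTR positions of the peaks are not reported.

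The hairpin of MIR126 lies inside EGFL7 at 136670602 to 136670686 on the plus strand. Its mature products are shown because they are the best known output of the locus in blood cells, with the seed, bases 2 to 8, in capitals (RefSeq, GRCh38.p14).
hsa-miR-126-3p: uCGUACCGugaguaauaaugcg
hsa-miR-126-5p: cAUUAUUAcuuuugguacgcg
Neither seed was shared with any other of the 2370 mature miRNA names in the table.

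The 250 bases before each of 6 starts are shown because the peaks lie at some of them and not at others. LOC102724193 has a further listed start at 136648947, and its start here and below is the one at 136646684. Capitals mark GGAA, the core letters that ETS factors such as ERG recognise, on either strand (so also as TTCC).
EGFL7 upstream start, plus strand, chr9:136658606-136658855: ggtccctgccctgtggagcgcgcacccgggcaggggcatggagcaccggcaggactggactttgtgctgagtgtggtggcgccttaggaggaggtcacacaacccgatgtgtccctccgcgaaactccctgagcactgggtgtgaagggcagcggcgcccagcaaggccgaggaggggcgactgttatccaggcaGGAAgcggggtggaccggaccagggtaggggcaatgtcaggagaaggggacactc
EGFL7 downstream start, plus strand, chr9:136662666-136662915: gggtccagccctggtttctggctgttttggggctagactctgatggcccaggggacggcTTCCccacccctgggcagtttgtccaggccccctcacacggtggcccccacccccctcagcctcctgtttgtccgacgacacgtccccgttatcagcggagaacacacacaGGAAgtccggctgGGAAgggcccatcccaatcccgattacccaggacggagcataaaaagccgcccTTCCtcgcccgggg
LOC102724193 start, plus strand, chr9:136646434-136646683: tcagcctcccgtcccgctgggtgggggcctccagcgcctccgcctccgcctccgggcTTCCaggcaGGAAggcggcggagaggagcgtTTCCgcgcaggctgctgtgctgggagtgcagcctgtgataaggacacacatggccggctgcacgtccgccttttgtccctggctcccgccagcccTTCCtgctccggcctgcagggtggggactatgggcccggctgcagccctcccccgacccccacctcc
AGPAT2 start, minus strand, chr9:136687458-136687707: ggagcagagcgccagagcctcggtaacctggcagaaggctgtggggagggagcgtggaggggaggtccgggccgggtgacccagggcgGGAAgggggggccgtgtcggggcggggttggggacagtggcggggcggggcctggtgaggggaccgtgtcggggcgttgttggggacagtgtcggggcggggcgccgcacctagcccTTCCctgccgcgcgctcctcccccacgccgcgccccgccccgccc
DIPK1B start, plus strand, chr9:136712322-136712571: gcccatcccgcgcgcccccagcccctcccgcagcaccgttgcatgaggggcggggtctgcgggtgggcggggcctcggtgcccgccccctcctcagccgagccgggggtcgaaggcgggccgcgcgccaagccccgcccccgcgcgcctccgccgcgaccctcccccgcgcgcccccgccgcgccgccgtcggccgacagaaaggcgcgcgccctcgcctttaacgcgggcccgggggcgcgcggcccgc
SNHG7 start, minus strand, chr9:136728185-136728434: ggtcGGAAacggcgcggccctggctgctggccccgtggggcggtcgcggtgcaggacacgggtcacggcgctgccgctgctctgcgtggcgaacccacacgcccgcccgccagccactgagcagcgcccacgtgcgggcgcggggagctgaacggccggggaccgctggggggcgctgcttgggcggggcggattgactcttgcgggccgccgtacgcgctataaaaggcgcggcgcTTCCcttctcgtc

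GGAA occurred 4 times before the downstream start of EGFL7 and 4 times before the LOC102724193 start. It occurred 2 times each before AGPAT2 and SNHG7, 1 time before the upstream start of EGFL7 and not at all before DIPK1B. Of 35116 starts in the table, 92.7% held at least 1 GGAA in these 250 bases, with a median of 3, and 34.3% held 4 or more. Before the downstream start of EGFL7 the matches began 191, 80, 67 and 14 bases ahead of the start. The longer ETS match CCGGAAG, held by 8.52% of all starts and itself containing a GGAA, was in none of the 6 sequences, and neither was the GATA factor match AGATAA (9.17% of all starts). Those are exact letters, and shorter matches searched after the sequences had been seen were present. AGGAAG, which also contains a GGAA, occurred 1 time before the upstream start of EGFL7 and 2 times each before its downstream start and the LOC102724193 start (28.7% of all starts held it). GATAA, the part of AGATAA without its first letter, occurred 1 time before each of these 3 starts (20.4% of all starts). Neither was found in the other 3 sequences. The RUNX match TGTGGT (11.0%) occurred once, 179 bases before the upstream start of EGFL7, and the E-box CANNTG (61.8%) once each before LOC102724193 and SNHG7. All were searched on both strands. These matches are letters in the reference and show no binding. DIPK1B stood out by composition, with 84.0% G and C and 45 CpG pairs, against medians of 58.0% and 11 over all starts.

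The ERG-library peaks fell in 2 groups with an empty stretch of 47201 bp between them, and AGPAT2 lay wholly in the empty stretch. Peaks 1 to 4, numbered by position, lay before and inside EGFL7, and peaks 5 to 7 at DIPK1B and SNHG7. No peak of either library touched AGPAT2 or the MIR126 hairpin. Outside the interval the next ERG-library peaks were 98947 bp below and 52206 bp above. These gaps were not compared with gaps between peaks elsewhere in the genome. The nearest ERG-library peaks beyond the 50 kb limit were narrow and weak, at 136545423 to 136545723 inside NOTCH1 with 18 fragments at the summit and at 136780946 to 136781337 with 17. When peaks were joined as described below, the upper one opened a domain of 2 peaks that ended at 136790181. That domain was covered over 1821 bp and ranked 550. In the Vector library the nearest outside the limit was 297 bp wide, 59.2 kb above AGPAT2, with 14 fragments.

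**Figure D1:**
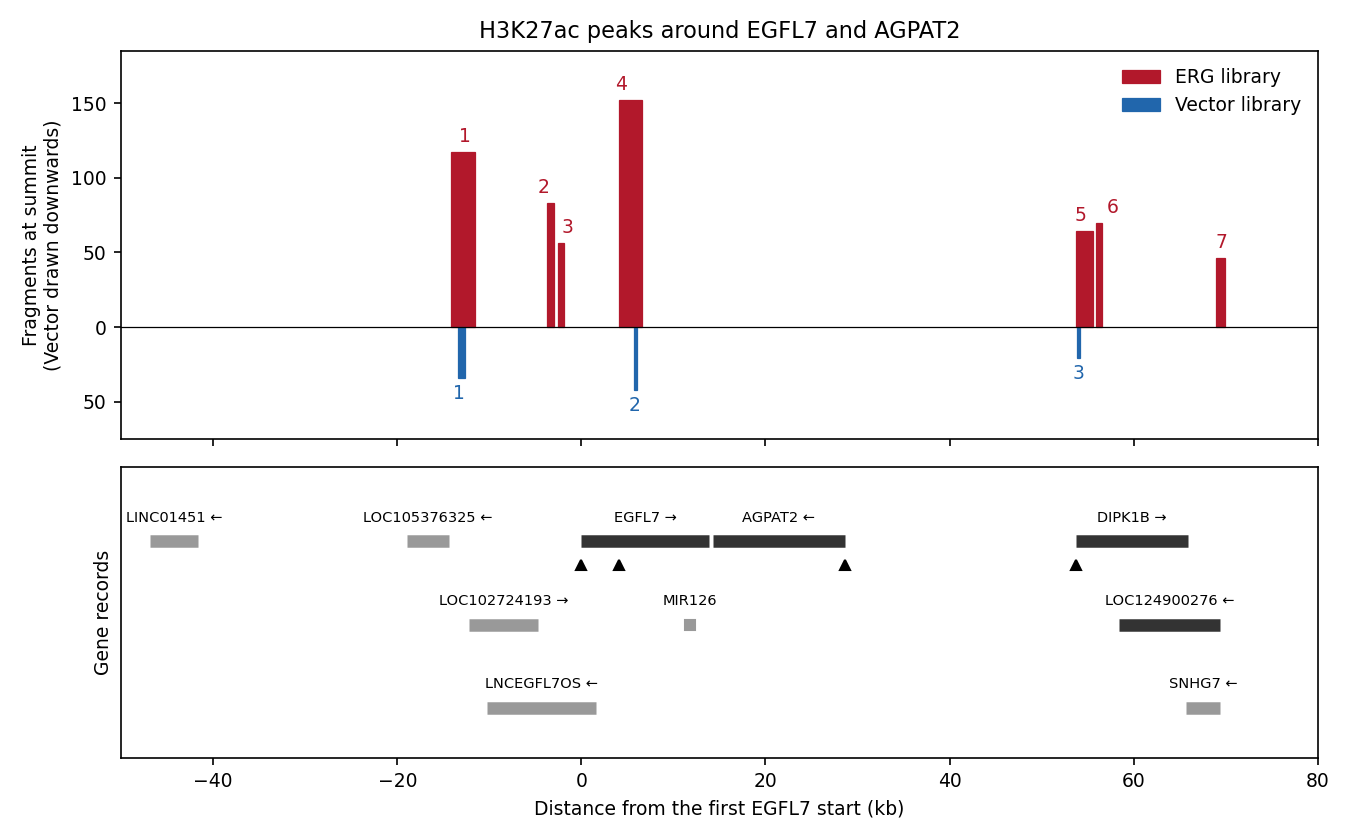
Peaks of the ERG library (red, upwards) and the Vector library (blue, downwards) by distance in kb from the upstream EGFL7 start, with bar width the peak width and bar height the fragments at the summit, not scaled for depth. Gene records are drawn to scale below (dark, coding; grey, non-coding; MIR126 as a square), arrows give the direction of reading and triangles the starts of EGFL7, AGPAT2 and DIPK1B. The 3 Vector-library peaks sit under ERG-library peaks 1, 4 and 5, and no bar lies over AGPAT2.

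Each peak is described by the number of sequenced fragments over its summit and by the local background that the peak caller set against it. Both were computed from the deposited fold and −log10 p-value, which gave whole fragment numbers for all peaks of both lists. The lowest background of each list, taken as its genome background, was 2.31 fragments for the ERG library against 1.60 for the Vector library. Dividing them gave a relative depth of 1.44. How the local background was obtained is not stated in the labels. It reflects the surrounding signal of the same library where no input library was used.

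Peak 4, at 136662932 to 136665417 inside EGFL7, was the strongest site of the locus. It was 2486 bp wide, began 16 bp after the downstream start of EGFL7, and had 152 fragments at its summit (95% Poisson interval 129 to 178), which lay 196 bp after that start. The upstream EGFL7 start lay 1941 bp from the nearest peak. By width it was the 53rd of the 19671 ERG-library peaks. Its summit was 65.7 times the genome background, and its local background was 46.2 fragments, 19.9 times that of the genome. Its local background was above that of 99.2% of ERG-library peaks, and of the 12975 that overlap a coding gene it was the 49th by this measure.

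Peak 1, at 136644671 to 136647334, was the widest of the locus at 2664 bp and the 27th widest of the library. It lay 11522 bp before EGFL7 and covered the LOC102724193 start, with its summit 452 bp before that start. The start of the non-coding gene LOC105376325, which is read the other way, lay 195 bp below the peak. Peak 1 had 117 fragments at the summit (96.8 to 140) over a local background of 30.4. Peak 4 had 1.30 times as many (exact conditional 95% interval of the ratio 1.01 to 1.67), a difference only just beyond counting error.

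Peaks 2 and 3 lay close together inside the antisense gene LNCEGFL7OS, in the last few kilobases before the upstream EGFL7 start. Peak 2 (136655096 to 136655911, 816 bp) had 83 fragments (66.1 to 103) over a background of 25.1. Peak 3 (136656309 to 136656915, 607 bp) began 397 bp further on and had 56 fragments (42.3 to 72.7) over a background of 26.1. Its deposited fold of 2.10 was among the lowest of the library, with 1.12% of all peaks lower, although 72.2% of peaks had fewer fragments. Peak 3 is thus a small rise on a high local level.

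The group at the other side of AGPAT2 had 46 to 70 fragments at its summits, a range that includes the 56 of peak 3. Peak 5 (136712619 to 136714451, 1833 bp) began 47 bp after the start of DIPK1B, a gene of the divergent protein kinase domain family, and had 64 fragments (49.3 to 81.7). Peak 6 (136714797 to 136715388, 592 bp), also inside DIPK1B, had 70 fragments (54.6 to 88.4). Peak 7 (136727772 to 136728739, 968 bp) covered the shared start of SNHG7, a small nucleolar RNA host gene, and LOC124900276, and had 46 fragments (33.7 to 61.4). By fragments the order of the 7 peaks was 4, 1, 2, 6, 5, 3 and 7. Peak 1 had 1.41 times as many fragments as peak 2 (1.05 to 1.89), and for the 4 neighbouring pairs from peak 2 down to peak 7 the interval of the ratio included 1. Some peaks further apart in the order had intervals just above 1. Peak 2 had 1.48 times as many fragments as peak 3 (1.04 to 2.12), and peak 6 had 1.52 times as many as peak 7 (1.03 to 2.26). Of all 21 pairs of peaks, 14 had an interval above 1, with no adjustment for the number of pairs. The peaks were put in order by these same counts, so the direction of each ratio was set beforehand.

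The locus ranked high by fragments and by background but not by fold. Of the 7 peaks, 6 had a local background between 9.09 and 19.9 times that of the genome, above the 8.39 times that marks the upper 10% of all ERG-library peaks. The exception was peak 7, at 3.87 times. The same 6 peaks had folds of 2.10 to 3.76, all below the library median of 4.21, while peak 7 had 4.72. Against the library median of 36 fragments at the summit, all 7 peaks were higher. Fragments and background are not independent of the covered length by which the interval was chosen. The places by these measures, here and for single peaks above, are therefore descriptions and support nothing.

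**Figure D2:**
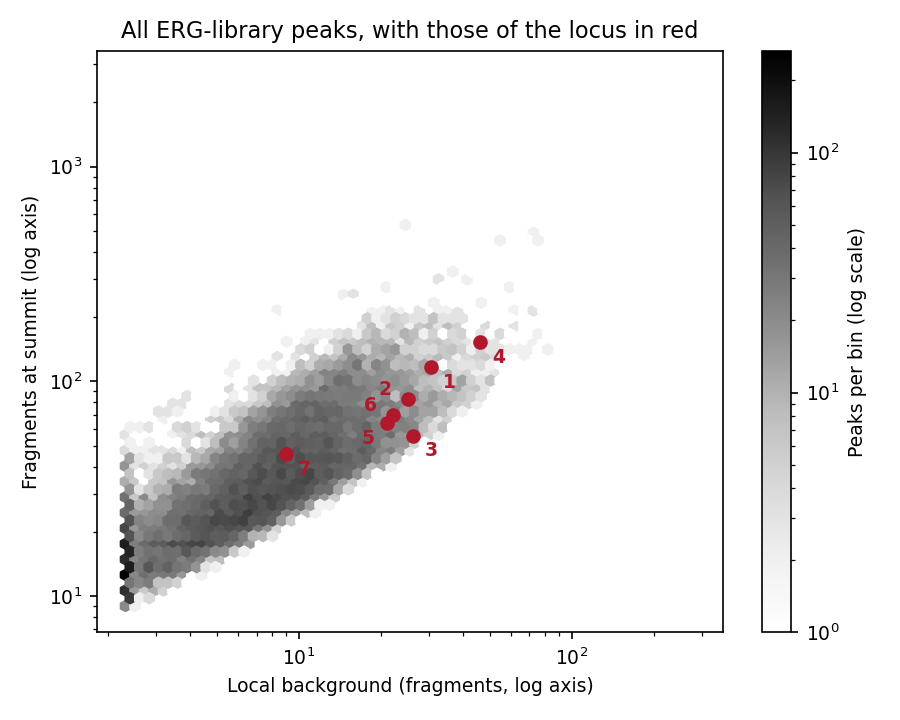
Fragments at the summit against local background for all 19671 ERG-library peaks, both on log axes, with darker bins holding more peaks. The numbered red points are the 7 peaks of the locus. Peaks 1 to 6 lie to the right, at backgrounds of 21.0 to 46.2 fragments, and peak 7 lies in the middle of the cloud at 8.95.

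The Vector library had 3 of these places marked, with fewer fragments before any scaling and over a shorter length. Its peak 1 (136645449 to 136646164, 716 bp) had 34 fragments over a background of 8.65. Its peak 2 (136664519 to 136664859, 341 bp), inside EGFL7, had 42 fragments over a background of 15.2, and its peak 3 (136712724 to 136713020, 297 bp), at the DIPK1B start, had 21 over 5.32. None of the 3 lacked an ERG-library peak, as 8.97% of all Vector-library peaks did. All 3 lay wholly inside ERG-library peaks 1, 4 and 5. Across the genome 76.7% of the 8339 shared Vector-library peaks did so. The background of Vector peak 2 was 9.49 times that of its genome, a level above that of 96.0% of Vector-library peaks, so the EGFL7 site stood on a raised background in both libraries.

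At these 3 overlapping pairs the ERG library had more fragments after scaling by the depth of 1.44. The ratio was 2.38 (95% interval 1.61 to 3.60) for the pair before EGFL7, 117 against 34 fragments. It was 2.51 (1.77 to 3.62) for the pair inside EGFL7, 152 against 42 fragments, and 2.11 (1.27 to 3.64) for the pair at DIPK1B, 64 against 21 fragments. Over all shared pairs, 86.0% had a ratio above 1 and the median was 1.44, with 2.08 marking the upper 10%. A ratio above 1 was therefore common at this depth. The 3 ratios lay above those of 95.3%, 96.5% and 90.4% of shared pairs, an order that no choice of depth moves. The choice of the interval by ERG-library covered length is not independent of these ratios, so their places are descriptions and support nothing. Strong shared peaks, picked by at least 100 fragments in the ERG library alone, had a median unscaled ratio of 2.37. That choice favours high ratios, and the pairs before and inside EGFL7 are among them. Scaled by 2.37 instead, the 3 ratios were 1.45 (0.983 to 2.19), 1.53 (1.08 to 2.20) and 1.28 (0.774 to 2.21). The intervals of the pairs before EGFL7 and at DIPK1B then included 1. With that depth 32.5% of all shared pairs had a ratio above 1, and their median was 0.879.

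The local background differed in the same direction. After scaling by 1.44 it was 2.43 times higher in the ERG library at the pair before EGFL7, 2.10 times at the pair inside EGFL7 and 2.74 times at the pair at DIPK1B. Over all shared pairs 88.1% had a ratio above 1, with a median of 1.37 and an upper 10% from 1.86. Scaled by 2.37 the 3 background ratios were 1.48, 1.28 and 1.67, while 22.5% of all shared pairs were above 1 and their median was 0.833. Where no input library was used, this background comes from the same reads as the peaks called against it. Covered length and background are therefore not counted as separate evidence.

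**Figure D3:**
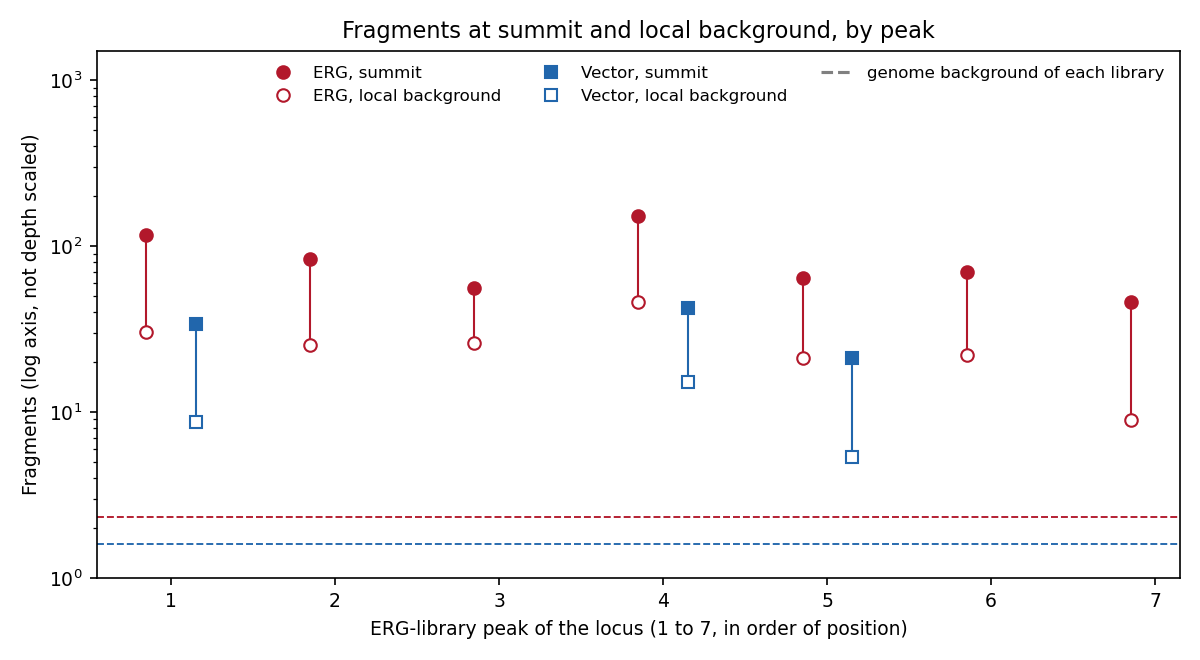
Fragments at the summit (filled) and local background (open) on a log axis for the 7 ERG-library peaks (red circles) and the 3 overlapping Vector-library peaks (blue squares), without depth scaling. Dashed lines give the genome background of each library, 2.31 and 1.60 fragments. At peaks 1, 4 and 5 both the summit and the background are higher in the ERG library.

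The paired peaks differed in shape as well as height. ERG-library peak 4 was 7.29 times as wide as its Vector-library partner, peak 5 was 6.17 times and peak 1 was 3.72 times as wide, against a median of 1.55 over all shared pairs. ERG-library widths make up the covered length by which the interval was chosen, so these width ratios follow from the choice. The highest points did not coincide. They were 1471 bp apart at EGFL7, 1191 bp at DIPK1B and 702 bp before EGFL7, whereas the median distance over shared pairs was 67 bp and 90% were within 459 bp. Summits can lie further apart in wide peaks, and the median ERG-library peak was 641 bp wide. The distances were not compared with those of pairs of like width. At EGFL7 the ERG-library summit lay 196 bp after the downstream start and the Vector-library summit 1667 bp after it. At DIPK1B the order was the other way round, with the ERG-library summit 1457 bp after the start and the Vector-library summit 266 bp. The ratios above thus compare the tallest point of each peak, not the same base.

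The other 4 ERG-library peaks, numbers 2, 3, 6 and 7, had no Vector-library peak. This is 57.1% of 7 (exact 95% interval 18.4 to 90.1), near the 58.9% of all ERG-library peaks without a counterpart, so the share is not a result about this locus. These 4 peaks had 46 to 83 fragments, and of all ERG-library peaks in that range 36.3% had none. The shared peak 5, with 64 fragments, lay in the range too, while peaks 1 and 4 lay above it. Because the range was taken from the peaks without a counterpart, 36.3% is not a like comparison for the 57.1%. At the Vector library's depth the 4 peaks would have had 57.5, 38.8, 48.5 and 31.9 fragments with the depth of 1.44, and 35.0, 23.6, 29.5 and 19.4 with that of 2.37. For scale, at the backgrounds of Vector peaks 3, 1 and 2 a Vector-library site needed 16, 21 and 32 fragments to reach the lowest −log10 p-value of that list, 3.98. With the depth of 1.44, 57.5, 38.8 and 48.5 lie above the highest of these floors and 31.9 just below it. With that of 2.37 only 35.0 lies above it, and the rest lie between 16 and 32. With the lower depth and their own backgrounds scaled alike, all 7 ERG-library peaks still reached that p-value. The same was not computed with the depth of 2.37. The Vector-library backgrounds at the 4 sites are not known. A missing Vector-library peak shows a signal below the calling threshold, not that these sites lacked acetylation.

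Seen by start sites, EGFL7 had a peak within 1 kb of a start in the ERG library alone, through its downstream start. Over the 15843 coding genes with a listed start, 16.1% had this pattern. The Vector-library peak in EGFL7 lay 1603 bp from the same start, so a window of 2.5 kb counted it as marked in both. AGPAT2 had none in either library, as did 50.4% of genes, and its start was 22040 bp from the nearest ERG-library peak and 22598 bp from the nearest Vector-library peak. DIPK1B had a start peak in each library, as did 33.2% of genes. LOC124900276, which shares its start with SNHG7, had one from the ERG list but not the Vector list. The LOC102724193 start lay inside ERG-library peak 1 and 520 bp from Vector peak 1.

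The MIR126 hairpin lay 5185 bp from the nearest ERG-library peak, peak 4, and 5743 bp from the nearest Vector-library peak. Of 1560 microRNA hairpins in the table, 20.6% lay as near or nearer to an ERG-library peak and 12.4% to a Vector-library peak. Only 4.42% overlapped an ERG-library peak and 2.69% a Vector-library peak.

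By covered length the 2 genes stood near the top of the ERG library's excess, which is how they were chosen. Within 50 kb of EGFL7, ERG-library peaks covered 8998 bp and Vector-library peaks 1354 bp, the 30th largest difference of 20037 coding genes. For AGPAT2 the values were 9966 and 1354 bp, the 13th largest. Over all coding genes 73.0% were covered further by ERG-library peaks, with a median difference of 801 bp. In the Vector library alone the 2 genes were less extreme, with 82.2% of genes covered over a shorter length. All of AGPAT2's covered length came from peaks at its neighbours, since 0 bp lay inside its own record, against 2486 bp (ERG library) and 341 bp (Vector library) inside EGFL7. Of the 30 genes of largest difference, 5 had no peak of either library inside their record.

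**Figure D4:**
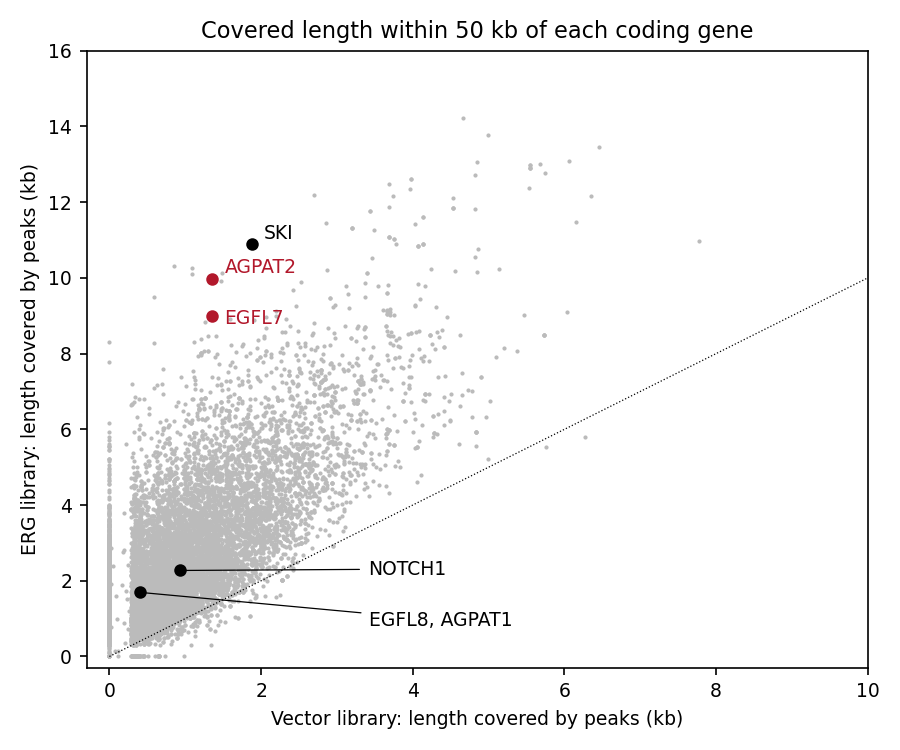
Length covered by peaks within 50 kb of each of 20037 coding genes in kb, with the Vector library across and the ERG library upwards, 1 point per gene. The dotted line marks equal length. EGFL7 and AGPAT2 (red) lie high on the left (8998 and 9966 bp upwards, 1354 bp across), beside SKI, while NOTCH1, EGFL8 and AGPAT1 lie within the mass of genes.

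The genes most like EGFL7 in this pair of lengths, by distance on the log2(bp + 1) scale over the 2 libraries, were ACTN4 (8463 and 1402 bp, distance 0.10), LIX1L (8468 and 1300 bp, 0.11) and ZMIZ1 (8827 and 1259 bp, 0.11). They were followed by ANKRD34A and POLR3GL (both 8066 and 1300 bp), neighbours of LIX1L on chromosome 1 that share its peaks. The genes most like AGPAT2 were DEPTOR (9927 and 1477 bp, 0.13) and BCOR (10118 and 1486 bp, 0.14), followed by ZMIZ1, ACTN4 and LIX1L. These are likenesses of length over only 2 values per gene.

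Peaks over 1 kb from coding gene ends were joined over the gap length customary for calling super-enhancers. Peaks 1 to 4, with gaps of 397 to 7761 bp between them, then formed a domain of 20747 bp at 136644671 to 136665417. ERG-library peaks covered 6573 bp of it, 31.7%, and Vector-library peaks 1057 bp. It was the 9th of 7694 ERG-library domains by covered length, and of those ranked above it only the one at SKI overlapped a coding gene. Over all domains, 2.40% held at least 4 peaks. Of the first 20 domains the EGFL7 domain had the highest share of its span covered. In the Vector library the peaks before and inside EGFL7 were 18354 bp apart and did not join. The rank of the domain moved with the joining rule, to 66 when gaps of at most 5 kb were joined, which leaves peak 4 by itself at 2486 bp, and to 26 with gaps of up to 25 kb. Peaks 1 and 4 lie at the starts of LOC102724193 and EGFL7, and when peaks within 1 kb of any listed start were left out, an alternative added after seeing the data, no domain overlapped EGFL7.

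**Figure D5:**
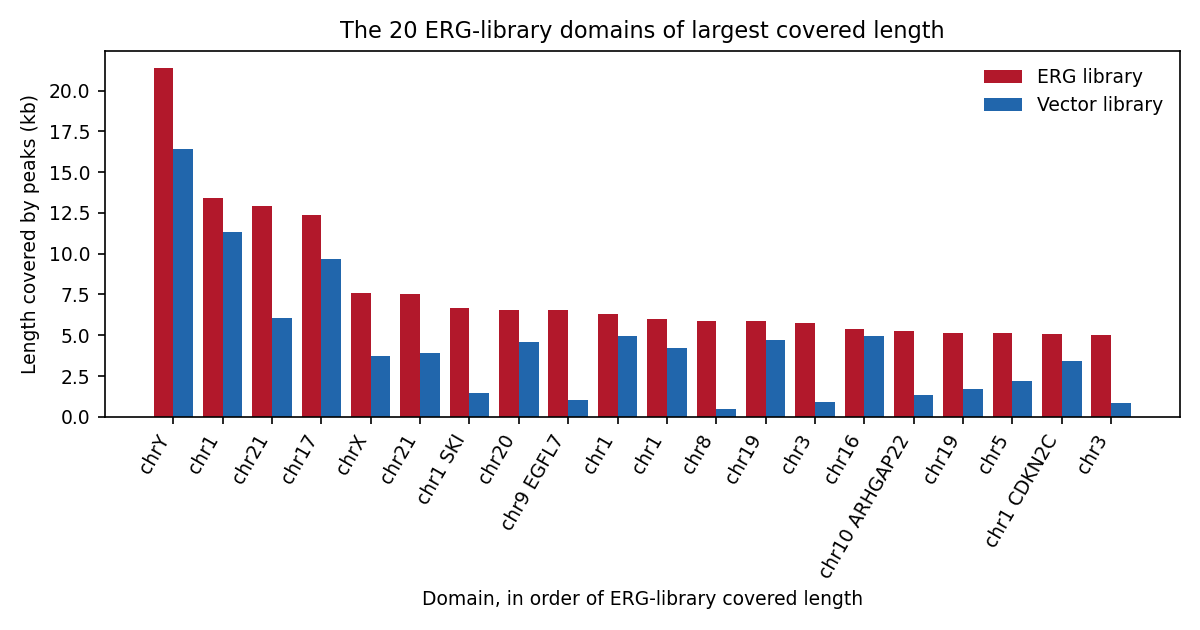
Length covered by peaks in kb in the 20 ERG-library domains of largest covered length, with the Vector library's length over the same span beside it, named by chromosome and by the coding gene overlapped, if any. The EGFL7 domain has 6573 bp against 1057 bp. The first 4 domains overlap no coding gene and are widely covered in both libraries.

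The gene pair EGFL8 and AGPAT1 on chromosome 6 is the paralogous counterpart of EGFL7 and AGPAT2, with the genes again side by side. Within 50 kb of it the ERG library had 3 peaks and the Vector library 1, covering 1693 and 405 bp, and none lay inside either gene or overlapped a peak of the other library. The strongest had 26 fragments, against 152 at EGFL7, and the highest local background was 2.81 times that of the genome, against 19.9 times. This part of chromosome 6 has alternative copies in the genome build, which can lower the number of reads placed there, and their effect was not tested.

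NOTCH1, which encodes a receptor whose signalling EGFL7 modulates, is the next large gene below the locus. Its 50 kb window held 5 ERG-library and 2 Vector-library peaks over 2272 and 934 bp. Inside the gene the ERG library had 3 peaks with 18 to 25 fragments and the Vector library none. Outside the gene, ERG-library peaks with 105 and 80 fragments overlapped Vector-library peaks with 47 and 54. SKI, a repressor of SMAD signalling, also has a domain among the first 20. It had 10 peaks against 3, covering 10905 and 1875 bp, with up to 121 fragments in the ERG library and local backgrounds of up to 11.1 times the genome level. No test of these differences between loci can be made with 1 library per group.

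Lists of genes related by function had median differences of 860 to 1369 bp, beside 801 bp over all genes, well below the 7644 bp of EGFL7 and 8612 bp of AGPAT2. The lists hold EGFL7 or AGPAT2 where named below, which were chosen by this value. Of 15 EGFL7 relatives and Notch partners, EGFL7 included, 12 had the longer cover in the ERG library and 3 were equal, with a median difference of 1090 bp. That count is near the 73.0% of all coding genes and is no result about the list. After EGFL7 itself, MAML1, a Notch coactivator, had the largest difference (8005 and 2287 bp), followed by the Notch target HES1 (2809 and 955 bp) and the Notch DNA-binding factor RBPJ (2151 and 388 bp). Of 11 genes of miR-126 targets and microRNA processing, 10 had the greater length in the ERG library and 1 was equal, with a median of 1369 bp, where 73.0% of all coding genes had the greater length. The largest differences were at the adaptor gene CRK (2690 and 554 bp), the pre-microRNA exporter XPO5 (2126 and 0 bp), the PI3-kinase subunit PIK3R2 (3744 and 1673 bp) and the insulin receptor substrate IRS1 (3073 and 1421 bp).

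On the AGPAT2 side, 17 of 22 glycerolipid synthesis genes had the greater length in the ERG library, 4 were equal and 1, GPAM, was lower (481 and 566 bp), with a median of 890 bp. The count includes AGPAT2 and is near the 73.0% of all coding genes. DGAT1, which makes triglyceride, had 5392 and 1761 bp, the CDP-diacylglycerol synthase CDS2 4076 and 782 bp, and the lysophospholipid acyltransferase MBOAT7 2828 and 318 bp. Of 11 lipodystrophy genes, 8 had the greater length in the ERG library, 2 were equal and 1, CIDEC (649 and 1042 bp), was lower, with a median of 860 bp. This count too includes AGPAT2, and the share over all coding genes was the same 73.0%. BSCL2, the seipin gene, had 7099 and 2169 bp, the lamin gene LMNA 4850 and 951 bp, and the lamin-processing protease gene ZMPSTE24 4108 and 626 bp. Start peaks in the ERG library alone were found at 3 of 15 glycerolipid genes and 2 of 10 lipodystrophy genes with a listed start, where the share over all genes was 16.1%.

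Of 21 endothelial genes known to be regulated by ERG, 12 had the greater length in the ERG library, 8 were equal and 1, FZD4 (0 and 452 bp), was lower, with a median of 935 bp. The count includes EGFL7 and lies below the 73.0% of all coding genes, so by this measure the list does not stand above the background. By starts, 4 of the 9 genes with a listed start had a start peak in the ERG library alone, where the share over all genes was 16.1%. These 4 are EGFL7, chosen by its ERG-library cover, and ERG, ENG and TIE1. Whether the list differs from all genes in this was not tested. After EGFL7 the largest differences were at ERG (6865 and 336 bp), where fragments of the introduced sequence cannot be told from the resident gene, at FLI1, the nearest relative of ERG (5006 and 487 bp), and at the endoglin gene ENG (7662 and 3195 bp). Of 7 endothelial marker genes, ESAM (2972 and 914 bp) and CLDN5 (947 and 898 bp) had the greater length in the ERG library, and the other 5, CDH5, KDR, ROBO4, TEK and VWF, had 0 bp in both. As a check of the cell type, 5 of 6 erythroid marker genes with a listed start had a start peak in each library and 1 had it from the ERG list only, while 0 of 3 endothelial marker genes had one in either.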

How the data were processed

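Per the submitters' processing notes, Bowtie2, MACS2 and deepTools were used on hg38. Versions, settings and use of an input library are not given in the sources used here. Each deposited file lists the peaks of a single library, with a deposited score, fold at the summit (a ratio over local background) and −log10 p- and q-values. These are the authors' own values, used only within their list.

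Fragments and background were solved from the fold, (fragments + 1) / (background + 1), and the Poisson tail, to within 0.0001 of the −log10 p-value. The calculation was tested on simulated data (Python 3.11.15, NumPy 2.4.6, pandas 2.3.3, SciPy 1.17.1). Peaks overlapping by at least 1 bp were shared, and each shared Vector-library peak was paired with the overlapping ERG-library peak of most fragments. Strong pairs, 1517 in number, had at least 100 ERG-library fragments. Covered length is over the gene record and 50 kb either side. Start peaks used the RefSeq promoter table, which gave starts for 15843 of 20037 coding genes, and domains used gene ends. The genes most like each member are the 5 at the smallest distance, on other chromosomes or over 1 Mb away. List genes named are the 4 of largest difference, with others chosen after their values were seen. Members and lists were chosen with earlier results of these data known.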

Additional observations from a re-analysis of the deposited data

How the results depend on the processing

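No paired analysis was possible because each group holds 1 library. With a window of 10 kb the locus held 3 ERG-library peaks and 1 Vector-library peak, 2 ERG-library peaks were without a counterpart, and 3909 and 341 bp were covered. With 100 kb the covered lengths were 10358 and 1651 bp. Among the better-scoring 50% of each list the ERG library had 6 peaks over 9359 bp and the Vector library 0 peaks over 0 bp. Limiting the ERG list to the Vector list's length also gave 9359 bp. A −log10 q-value of at least 3 left all 7 and 3 peaks in place. So did thinning the ERG library to the Vector background by the depth of 1.44, with widths unchanged. Thinning by 2.37 was not run. Both other overlap rules left 4 ERG-library peaks without a counterpart. Scaled by strong shared peaks the fragment ratios were 1.45 before EGFL7 and 1.53 inside it, and the background ratios 1.48, 1.28 and 1.67 before EGFL7, inside it and at DIPK1B. Without depth scaling the fragment ratio inside EGFL7 was 3.62. The domain covered 2486 bp and ranked 66 with gaps of at most 5 kb. It ranked 26 with gaps of up to 25 kb, 15 with no peak left out, and 11 over 5966 bp with peaks within 2.5 kb of gene ends left out. With peaks within 1 kb of any listed start left out, an alternative added after seeing the data like the scaling of the background and the use of gene ends for starts, peaks 1 and 4 dropped out and no domain overlapped EGFL7. By gene ends EGFL7 had no end peak in either library. The relative depth itself is uncertain between 1.44 and 2.37, and what the lower depth of the Vector library did to its weak sites was not tested beyond the thinning above.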
